A study of Mus musculus with 6 samples.

Results

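The genes described here encode splicing factors and other RNA-binding proteins, and 170 of the 10191 genes in the deposited table belong to them. They were defined by the start of their symbols, in families picked with earlier results of these data known: SR proteins (Srsf), hnRNP proteins (Hnrnp), the Sm proteins and other proteins of the small nuclear ribonucleoprotein particles, or snRNPs (Snrp), the U2 snRNP subunits Sf3a and Sf3b, U2af, the Prpf factors, the LSm proteins, the Ddx and Dhx RNA helicases, the Rbm proteins, Cirbp, the Celf, Mbnl, Rbfox, Esrp, Elavl and Nova families, and the Cpsf subunits of the 3' end processing machinery. Of 176 matching symbols, 6 on the X or Y chromosome (Ddx3x, Ddx3y, Hnrnph2, Rbm10, Rbm3 and Rbm41) were left out. The test was run on 167 of the 170, those with at least 1 CPM (reads of a gene scaled to a common library size) in at least 3 libraries. The other 3, Ddx59, Dhx58 and Rbfox1, lay near or below that level in both groups, and none of the 170 entered the test through libraries of 1 group alone.

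The tumours came from the lungs of mice in 2 groups of 3 biological replicates, SD and Ctrl, and their total RNA was sequenced. Animals of the SD group spent 20 hours of each day in an SD cage during the 7 weeks that followed a virus injection, and Ctrl animals spent the same hours in a home cage. The letters SD are not spelled out in the labels, and the title of the series speaks of sleep deficiency. All mice received the virus, had free food and water, and lived in a 24-hour light-dark cycle. The genotype labels carry a number that differs in each sample, within and between the groups, where the design text names a single genotype, and the samples were treated as 1 genotype. The virus, the animals' age, sex and strain, and the hour of collection are not given in the sources used here.

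Splicing removes introns from pre-mRNA in the spliceosome, a machine built on small nuclear RNAs dressed with Sm or LSm proteins. SR proteins bind exonic enhancers and favour the use of nearby splice sites, hnRNP proteins often oppose them, and cell-type-restricted regulators such as NOVA, RBFOX, ESRP and MBNL set tissue-specific exon choice. Many of these proteins regulate their own transcripts through exons that target the mRNA for decay, so the RNA level of a splicing factor need not follow its protein level, and a table of reads per gene does not show which isoform was made.

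Library totals were 6511192 to 6968966 reads in SD and 7021019 to 7417095 reads in Ctrl. The tissue label was read against cell type markers. Over all genes tested, 27.7% were called higher in SD and 28.7% were called lower. Surfactant genes of alveolar type 2 cells were present in every library, and all 8 type 2 markers in the table were lower in SD (summed 1376 to 1452 CPM in SD, 4983 to 5495 CPM in Ctrl). Ciliated markers (8 of 9 higher, leaving out Ccdc40, which passed the filter through SD libraries alone; summed over all 10, 1387 to 1413 CPM in SD, 360.2 to 381 CPM in Ctrl), endothelial markers (8 of 8 higher, 2746 to 2813 CPM in SD, 924 to 956 CPM in Ctrl) and smooth muscle and pericyte markers (9 of 10 higher, 1197 to 1221 CPM in SD, 492 to 503 CPM in Ctrl) ran the other way. These libraries are bulk RNA, in which fewer cells of a type and less RNA per cell cannot be told apart. The part of this shift in the results that follow was not tested.

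Summed over the chosen families, transcripts of splicing factors and RNA-binding proteins were more abundant in SD tumours. The 170 genes together took 38589, 38307 and 39552 CPM in the SD libraries and 31073, 31769 and 31384 CPM in the Ctrl libraries, a ratio of group means of 1.24, and the 3 SD libraries stood above the 3 Ctrl libraries. Without Ddx5, the most abundant transcript of the set per kilobase, the ratio was 1.23. Of the 167 genes tested, 100 passed limma's test at an adjusted p of 0.05 (59.9%), against a background of 56.4% of the 9945 genes tested. A count of changed genes of this size was therefore close to that of the table as a whole. The directions were not alike: 72 were higher in SD (43.1%; background 27.7%) and 28 were lower (16.8%; background 28.7%). The median log2 difference, SD minus Ctrl, was 0.15 over these genes and -0.01 over all genes tested. In 107 of the 167 the SD and Ctrl libraries did not overlap (73 above, 34 below), a share of the kind seen in the table at large, where it was 60.1%. Most differences were small. Of the genes that passed, 25 were at least 1.5-fold higher and 10 at least 1.5-fold lower.

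**Figure D1:**
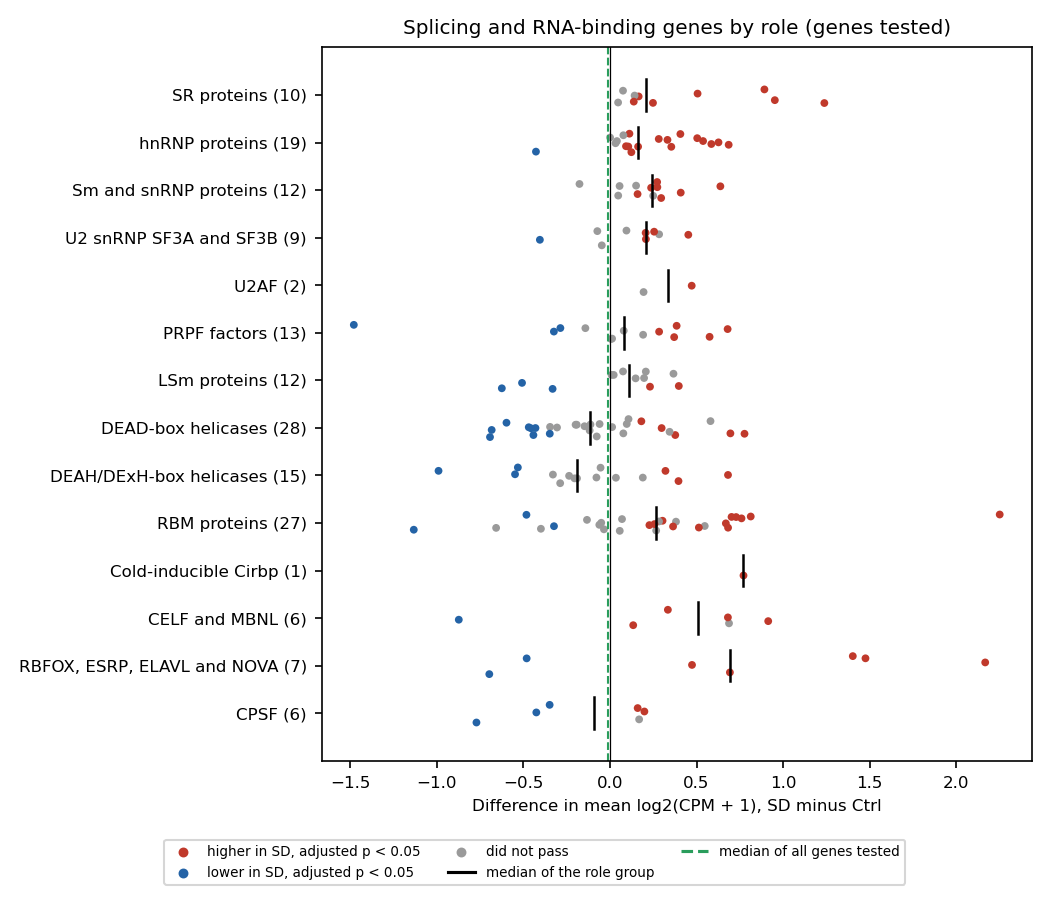
Difference in mean log2(CPM + 1), SD minus Ctrl, for each tested gene, arranged by role; each point is 1 gene, coloured by the outcome of limma's test, short vertical bars mark role medians and the dashed line marks the median of all genes tested. SR proteins, hnRNP proteins and Sm and snRNP proteins lie mostly to the right of the line, whereas the medians of both helicase groups, -0.11 and -0.19, lie to its left.

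The SR proteins that passed the test moved in 1 direction. Of 10 genes, 7 were higher in SD (70%, against 27.7% of all genes tested) and none was lower (28.7% of all genes tested). All 10 fitted log2 differences were positive, with a median of 0.21, apart from Srsf11 under quantile normalization (-0.018) and without SD replicate 2 (-0.0034). Their summed level was 5362, 5302 and 5478 CPM in SD and 3323, 3338 and 3292 CPM in Ctrl, a ratio of 1.62. Srsf5, Srsf2 and Srsf7 had the largest differences of the family. The reference promoters of these 3 genes, which rose together, are given first, from 250 bases before to 50 bases after the annotated start, 5' to 3' on the strand of the gene (RefSeq, GRCm38.p6): Srsf5 on the plus strand at chr12:80945249-80945548, Srsf2 on the minus strand at chr11:116853045-116853344 and Srsf7 on the minus strand at chr17:80207256-80207555. Capitals mark an ETS core (CCGGAAG, searched on both strands) in Srsf5 and Srsf7 and a CCAAT box (CCAAT, both strands) in Srsf2.
Srsf5: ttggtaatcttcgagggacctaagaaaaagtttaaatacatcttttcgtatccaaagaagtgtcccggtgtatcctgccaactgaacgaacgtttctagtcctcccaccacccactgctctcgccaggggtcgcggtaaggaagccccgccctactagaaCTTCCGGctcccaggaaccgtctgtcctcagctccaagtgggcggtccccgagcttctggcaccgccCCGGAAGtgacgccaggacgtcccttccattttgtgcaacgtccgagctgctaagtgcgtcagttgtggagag
Srsf2: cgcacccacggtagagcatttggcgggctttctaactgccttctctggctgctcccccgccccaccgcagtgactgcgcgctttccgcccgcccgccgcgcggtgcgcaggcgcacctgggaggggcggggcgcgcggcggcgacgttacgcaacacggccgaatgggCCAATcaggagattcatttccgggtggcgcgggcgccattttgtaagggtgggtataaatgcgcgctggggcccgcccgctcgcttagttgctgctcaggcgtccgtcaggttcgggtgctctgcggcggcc
Srsf7: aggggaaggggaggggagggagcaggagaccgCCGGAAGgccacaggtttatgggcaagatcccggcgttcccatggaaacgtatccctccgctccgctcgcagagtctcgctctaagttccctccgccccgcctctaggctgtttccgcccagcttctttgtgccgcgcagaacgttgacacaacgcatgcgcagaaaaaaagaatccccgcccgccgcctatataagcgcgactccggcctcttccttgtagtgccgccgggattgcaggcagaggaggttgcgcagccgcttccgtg

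Srsf5, which binds purine-rich exonic enhancers, had 2234, 2223 and 2301 CPM in SD and 955, 962 and 946 CPM in Ctrl. All 3 SD libraries lay far above the 3 Ctrl libraries. The means were 2253 ± 42.4 CPM in SD and 954 ± 7.58 CPM in Ctrl (standard deviation, n = 3 each), 2.36-fold higher in SD, with a log2 difference of 1.24 ± 0.035 (standard error) and an adjusted p of 1.1e-27. Srsf2, also known as SC35, an activator of exon inclusion, had 675, 674 and 693 CPM in SD and 359, 367 and 329 CPM in Ctrl, 1.94-fold higher (adjusted p = 4.9e-20). The annotated Srsf2 locus overlaps Mettl23 and Mfsd11, and since no strand setting is stated, reads of overlapping genes cannot be told apart there. Srsf7, an SR protein that also serves as an adaptor for mRNA export, had 395, 375 and 381 CPM in SD and 206, 215 and 199 CPM in Ctrl, 1.86-fold higher (adjusted p = 1e-17). None of these 3 genes had overlapping groups.

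The rest of the family showed a graded range. Srsf10, which represses splicing when dephosphorylated, was 1.42-fold higher (275, 265 and 261 CPM in SD, 188, 199.9 and 175 CPM in Ctrl; adjusted p = 9.9e-10). Srsf6 was 1.19-fold higher (adjusted p = 5.1e-05), Srsf3 1.12-fold (adjusted p = 0.0043) and Srsf1, the best studied SR protein, 1.10-fold (adjusted p = 0.011). The Srsf3 and Srsf1 calls were lost under quantile normalization (adjusted p = 0.32 and 0.53), and that of Srsf1 was lost without SD replicate 3 (adjusted p = 0.12). Srsf9, Srsf4 and Srsf11 did not pass. For Srsf11 the libraries overlapped (180.3, 209.9 and 198 CPM in SD, 181, 197 and 189 CPM in Ctrl), and the 95% interval of its log2 difference was -0.08 to 0.17. The interval for Srsf4 was -0.07 to 0.22. Set per kilobase of annotated exon, Srsf5 ranked 2 of 170 in SD (565 CPM per kb) and 5 of 170 in Ctrl (239 CPM per kb), and Ddx5 ranked 1 in both groups (831 CPM per kb in SD, 640.2 CPM per kb in Ctrl).

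**Figure D2:**
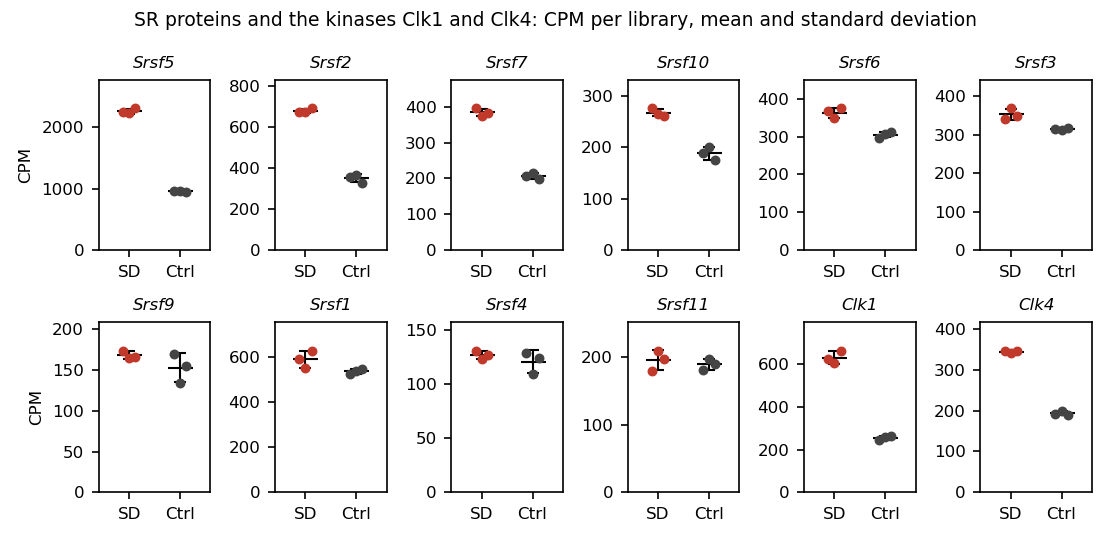
CPM in each library for the 10 SR protein genes and the SR protein kinases Clk1 and Clk4; points are libraries, SD left of Ctrl, with the mean and standard deviation as bars. Srsf5, Srsf2, Srsf7 and Srsf10 and both kinases separate by a wide gap (Srsf5 2253 CPM in SD, 954 CPM in Ctrl), whereas Srsf9, Srsf4 and Srsf11 overlap.

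The kinases that phosphorylate SR proteins were listed alongside them. Of 13 kinases and phosphatases of splicing tested, 8 were higher in SD and 2 were lower. With Topors, named below, 8 of 14 were higher (57.1%) and 3 were lower (21.4%), against 27.7% and 28.7% of all genes tested. All 4 members of the CLK family, nuclear kinases that act on the arginine-serine domains of SR proteins, were higher. Clk1 had 626, 605 and 665 CPM in SD and 245, 259 and 263 CPM in Ctrl, 2.47-fold higher (adjusted p = 8e-24), and the groups did not overlap. Clk3 was 1.87-fold higher, Clk4 1.78-fold and Clk2 1.50-fold, each without overlap between groups. The dual-specificity kinase Dyrk2 was 1.62-fold higher. Srpk1, the cytoplasmic SR protein kinase, rose less (70.4 CPM in SD, 58.1 CPM in Ctrl, 1.21-fold; adjusted p = 0.007), and Srpk2 did not pass (90.7 CPM in SD, 85.9 CPM in Ctrl). Those of the 13 that fell were Akt1 (1.25-fold lower) and the phosphatase catalytic subunit Ppp1ca (1.08-fold lower, with overlapping groups). The Ppp1ca call was lost without SD replicate 1, SD replicate 3, Ctrl replicate 1 or Ctrl replicate 3 (adjusted p of 0.19, 0.065, 0.21 and 0.075). It was also lost with size factor scaling (0.061), edgeR (0.059), DESeq2 (0.078) and a replicate block (0.055). Topors, a ubiquitin and SUMO ligase that stood on the same list and is not counted among the 13, was 1.68-fold lower.

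Among the hnRNP proteins, which package pre-mRNA and often silence exons, 14 of 19 were higher and 1 was lower, with a median of 0.16. Those shares, 73.7% and 5.3%, compare with 27.7% and 28.7% of all genes tested. Hnrnph3 and Hnrnph1, members of the family that binds runs of G, were among the largest. Hnrnph1 had 879, 869 and 917 CPM in SD and 569, 591 and 564 CPM in Ctrl, 1.55-fold higher (adjusted p = 3.9e-16). Hnrnph3 was 1.61-fold higher (221, 234 and 235 CPM in SD, 136, 145 and 146 CPM in Ctrl; adjusted p = 9.4e-13), with the limit that its locus overlaps Rufy2. Both genes were separated completely between groups. Hnrnpd, also called AUF1, which binds AU-rich elements, was 1.45-fold higher (587, 621 and 636 CPM in SD, 410.5, 413 and 446 CPM in Ctrl), and its relative Hnrnpdl was 1.42-fold higher (adjusted p = 3.3e-11). Hnrnpul2, a relative of hnRNP U, was 1.51-fold higher, while its paralog Hnrnpul1 was the family's lower gene (264, 254 and 263 CPM in SD, 351, 360.4 and 340.1 CPM in Ctrl, 1.35-fold lower; adjusted p = 2.6e-09).

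Hnrnpr, Hnrnpl, Hnrnpf and Hnrnpm formed a middle range, from 1.33-fold to 1.22-fold higher without overlap between groups. Hnrnpf, the relative of Hnrnph1, had 1102, 1079 and 1143 CPM in SD and 865, 872 and 902 CPM in Ctrl (adjusted p = 2.1e-09). Several abundant hnRNP genes differed by little. Hnrnpa2b1 (1929.9 CPM in SD, 1877 CPM in Ctrl) did not pass, and the 95% interval of its log2 difference was -0.03 to 0.11. Hnrnpc, which binds runs of U, averaged 353 CPM in both groups, with an interval of -0.10 to 0.10. Hnrnpa1, Hnrnpa3, Hnrnpab, Hnrnpk and Hnrnpu passed, with ratios of 1.07 to 1.12. Their calls are weak: under quantile normalization the adjusted p was 0.66 for Hnrnpa1, 0.19 for Hnrnpa3, 0.23 for Hnrnpab, 0.11 for Hnrnpk and 0.21 for Hnrnpu, and 9 hnRNP genes were called higher in place of 14. Leaving out SD replicate 3 raised the adjusted p of Hnrnpk to 0.21 and that of Hnrnpa3 to 0.12, and leaving out SD replicate 1 raised that of Hnrnpa1 to 0.17.

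In the core of the spliceosome, 7 of 12 Sm and snRNP proteins were higher and none was lower (median 0.24). The higher share was 58.3%, and over all genes tested 27.7% were higher and 28.7% were lower. The differences were modest. Snrpa1, which binds U2 snRNA, was 1.34-fold higher (38.1, 43 and 48.3 CPM in SD, 32.4, 35.6 and 28.6 CPM in Ctrl; adjusted p = 0.0027). The Sm ring proteins Snrpf, Snrpd2 and Snrpd3 were 1.22-fold, 1.21-fold and 1.18-fold higher, while Snrpd1, Snrpe and Snrpg did not pass. The U1 proteins Snrpa and Snrpc did not pass either (79.5 CPM in SD and 77.4 CPM in Ctrl for Snrpa, 19 CPM in SD and 21.3 CPM in Ctrl for Snrpc). Snrpn, an imprinted gene nearly identical in protein to Snrpb, was 1.65-fold higher (9.25 CPM in SD, 5.6 CPM in Ctrl), but reads shared with Snrpb make it uncertain, and its call was lost without SD replicate 2 (adjusted p = 0.074) or Ctrl replicate 2 (adjusted p = 0.082). The call of Snrpb, 1.12-fold higher, was lost under quantile normalization (adjusted p = 0.21).

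Proteins that recognise the branch point and the polypyrimidine tract followed. Sf3b1, which grips the branch point helix in the U2 snRNP, had 1183, 1136 and 1222 CPM in SD and 861, 896 and 829.8 CPM in Ctrl, 1.37-fold higher (adjusted p = 1.8e-12), with no overlap. U2af2, which binds the polypyrimidine tract, had 532, 505 and 525 CPM in SD and 378, 329 and 423 CPM in Ctrl, 1.38-fold higher (adjusted p = 4.1e-09). Other subunits of the same particle did not share that size of difference. Sf3b2 (499 CPM in SD, 515 CPM in Ctrl) and Sf3b3 (139 CPM in SD, 147 CPM in Ctrl) did not pass, and Sf3a1 was 1.33-fold lower (53 CPM in SD, 70.4 CPM in Ctrl; adjusted p = 0.00037). Over the 9 Sf3a and Sf3b genes, 44.4% were higher and 11.1% were lower, against 27.7% and 28.7% of all genes tested. These were 4 higher genes (2 without SD replicate 1, and 2 without Ctrl replicate 1) and 1 lower gene. Of those 4, Sf3a3 was not called without SD replicate 1 (adjusted p = 0.13) or Ctrl replicate 1 (adjusted p = 0.068), and Sf3b6 was not called under quantile normalization (adjusted p = 0.066) or in 4 of the 6 fits that left out 1 library (adjusted p 0.08 to 0.26).

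Of 13 PRPF factors, 5 were higher (38.5%) and 3 were lower (23.1%), against 27.7% and 28.7% of all genes tested. Prpf39, a U1-associated factor, was 1.61-fold higher (134, 129 and 152 CPM in SD, 87.8, 92.2 and 78.2 CPM in Ctrl; adjusted p = 6.3e-10), and its locus overlaps Fkbp3. The tri-snRNP protein Prpf3 was 1.50-fold higher (adjusted p = 3.1e-07), and the kinase Prpf4b 1.31-fold. Prpf18, which acts at the second step of splicing, had the largest fall of all 167 genes, at a low level: 3.07, 5.88 and 2.99 CPM in SD against 14.5, 10.9 and 12.1 CPM in Ctrl, 3.14-fold lower with a log2 difference of -1.48 ± 0.24 (standard error; adjusted p = 1.4e-06). The groups did not overlap, and 3 reads corresponded to 0.404 to 0.461 CPM in these libraries. Prpf8, the scaffold of the catalytic core, was 1.25-fold lower (257, 247 and 246 CPM in SD, 318, 317 and 305 CPM in Ctrl; adjusted p = 1.2e-06). Prpf40b, a U1-associated protein, was 1.22-fold higher, a call lost without SD replicate 2 (adjusted p = 0.081) or Ctrl replicate 2 (adjusted p = 0.12). Prpf19, a ubiquitin ligase of the spliceosome, averaged 156 CPM in SD and 154 CPM in Ctrl and did not pass.

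The RNA helicases were divided. Of 43 DEAD-box and DEAH/DExH-box genes tested, 8 were higher, 11 were lower and 24 did not pass, with a median of -0.12. The lower calls of Ddx19a, Ddx21, Ddx49 and Dhx34 and the higher call of Ddx42 were each lost in at least 1 alternative fit. The lower share, 25.6%, was near that of all genes tested (28.7%), and the higher share, 18.6%, was below theirs (27.7%). Of the other 124 genes 64 were higher and 17 were lower, with a median of 0.20, and the difference between the 2 sets of genes was not tested. Ddx5 and Ddx17, paralogs that act as splicing and transcription cofactors, went opposite ways. Ddx5 had 4688, 4769.7 and 4944 CPM in SD and 3590.1, 3869 and 3632 CPM in Ctrl, 1.30-fold higher (adjusted p = 7.7e-13). Ddx17 had 371, 329.7 and 369 CPM in SD and 557, 571 and 602 CPM in Ctrl, 1.62-fold lower (adjusted p = 3.5e-15). Neither gene had overlapping groups. The nucleolar paralogs Ddx50 and Ddx21, which lie 13613 bases apart on chromosome 10, also went opposite ways: Ddx50 was 1.72-fold higher (435, 424 and 443 CPM in SD, 254, 249.7 and 256 CPM in Ctrl), and Ddx21 was 1.42-fold lower (16.7, 19.1 and 16.9 CPM in SD, 23.9, 20.8 and 30.2 CPM in Ctrl). The Ddx21 call was lost without Ctrl replicate 3 (adjusted p = 0.11).

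Among helicases with a known place in the splicing cycle, Ddx39b (also UAP56, which acts in early assembly and in mRNA export) was 1.62-fold higher (239, 263 and 256 CPM in SD, 157, 155 and 154 CPM in Ctrl; adjusted p = 2.9e-13). Dhx16, the ATPase of spliceosome activation, was 1.61-fold higher (adjusted p = 8.3e-13). Dhx15, which takes spent spliceosomes apart, was 1.25-fold higher, and Ddx23 was 1.23-fold higher. Ddx46, an ATPase of the U2 step, was 1.35-fold lower, and Dhx8, which releases the spliced mRNA, was 1.47-fold lower (37.6 CPM in SD, 55.1 CPM in Ctrl; adjusted p = 2.1e-05). Dhx38, which remodels the spliceosome between the steps, did not pass (86.4 CPM in SD, 91.4 CPM in Ctrl). The largest fall of a helicase was that of Dhx9, RNA helicase A, which unwinds double-stranded RNA: 56.4, 60.3 and 62.3 CPM in SD against 118, 121 and 119 CPM in Ctrl, with a log2 difference of -0.99 ± 0.076 (standard error; adjusted p = 4.1e-14) and no overlap. Ddx47 and Ddx54, which act in ribosome production, were 1.64-fold and 1.55-fold lower, and Ddx6, a helicase of mRNA decay and translational repression, was 1.27-fold lower (adjusted p = 5.9e-06).

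**Figure D3:**
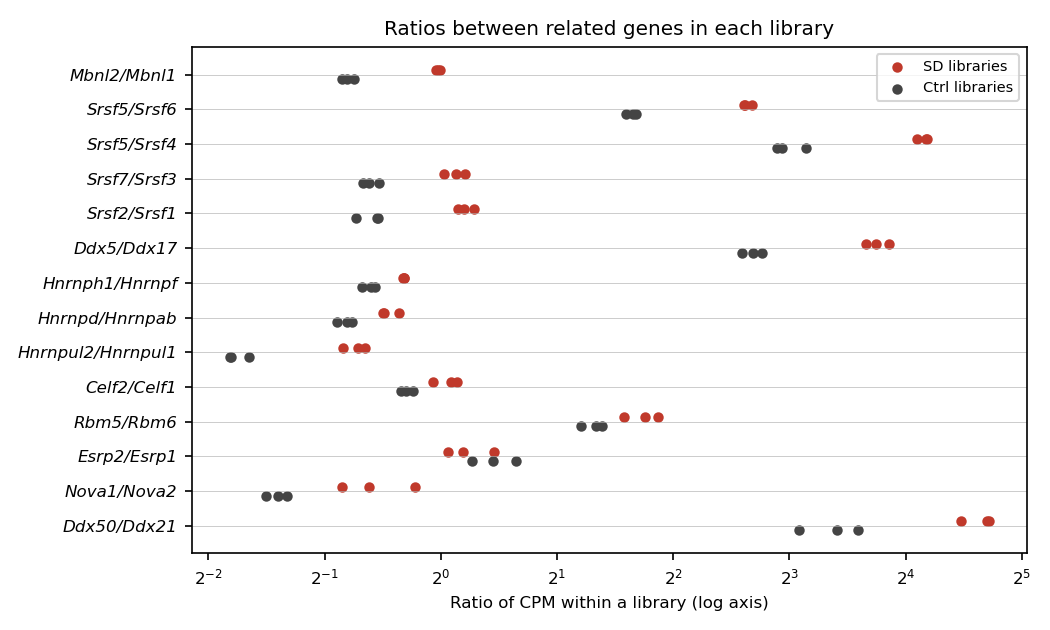
Ratio of CPM between related genes within each library on a log axis; each point is 1 library, SD libraries above the line of their pair and Ctrl libraries below it. In 13 of 14 pairs the SD and Ctrl libraries do not overlap, as for Ddx5 over Ddx17 (13.5 in SD, 6.42 in Ctrl), while Esrp2 over Esrp1 overlaps.

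A ratio of 2 genes within a library does not depend on how libraries were scaled, so 14 pairs of related genes were set against each other that way. The ratio of Ddx5 to Ddx17 was 12.6, 14.5 and 13.4 in SD and 6.44, 6.78 and 6.04 in Ctrl. The ratio of Srsf5 to Srsf6 was 6.09, 6.39 and 6.14 in SD and 3.21, 3.14 and 3.03 in Ctrl. The ratio of Mbnl2 to Mbnl1 was 0.996, 0.975 and 0.983 in SD and 0.595, 0.571 and 0.554 in Ctrl. In these 3 pairs, and in 10 others, the groups did not overlap. The pairs were chosen with the genes' values known and mostly join a gene that changed much to one that changed less or the other way, so the separation follows from that choice and is a description with no test. Esrp2 over Esrp1 overlapped (mean 1.19 in SD, 1.38 in Ctrl).

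Of 27 RBM proteins, 12 were higher (44.4%) and 3 were lower (11.1%), against 27.7% and 28.7% of all genes tested (median 0.27). DESeq2 called 10 higher and 2 lower, as did the fit without Ctrl replicate 1, and edgeR called 13 higher and 3 lower. Rbm39, a splicing cofactor related to U2AF2, had 1396, 1333 and 1408 CPM in SD and 781, 834 and 827 CPM in Ctrl, 1.69-fold higher (adjusted p = 2.2e-19). Rbm5, a regulator of exon inclusion, had 431, 453 and 459.8 CPM in SD and 268, 267 and 275 CPM in Ctrl, 1.66-fold higher (adjusted p = 5.6e-16). The groups overlapped for neither gene. Rbm6, a relative of Rbm5 that lies 2562 bases from it on chromosome 9, was 1.24-fold higher (145, 124 and 136 CPM in SD, 106, 116 and 105 CPM in Ctrl; adjusted p = 0.00037). Rbm15, which guides RNA adenosine methylation, was 1.65-fold higher, and the related nuclear RNA decay factors Rbm26 and Rbm27 were 1.59-fold and 1.63-fold higher. Rbm17, a splice site recognition factor, was 1.43-fold higher. Rbm25 passed on the strength of 1 library: SD replicate 1 had 369 CPM, the other SD libraries 261 and 273 CPM, and the Ctrl libraries 232, 268 and 248 CPM, and without SD replicate 1 the adjusted p was 0.18. Besides Rbm47, described with the epithelial genes, Rbm45 was lower (16.4, 16.2 and 17.6 CPM in SD, 25.8, 21.2 and 24.6 CPM in Ctrl, 1.42-fold; adjusted p = 0.0052). Rbm33 was called 1.26-fold lower, and its call was lost under quantile normalization (adjusted p = 0.094) and in 4 of the 6 fits that left out 1 library (adjusted p 0.062 to 0.14). Reads of Rbm4 and Rbm4b, which are nearly identical, may be shared, and neither passed.

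Cirbp, an RNA-binding protein induced by mild cold and known for a daily rhythm, was 1.74-fold higher in SD. It had 26.9, 27.1 and 26 CPM in SD and 16, 17.1 and 12.8 CPM in Ctrl, means of 26.7 ± 0.588 CPM and 15.3 ± 2.23 CPM (standard deviation, n = 3 each; adjusted p = 2.9e-05). The groups did not overlap. The time of day of collection, on which a rhythmic transcript depends, is unknown for both groups, and its part in this difference was not tested.

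The largest rises of the set in log2 difference, those of Rbm24, Nova1, Rbfox3 and Nova2, belonged to regulators known from particular cell types. Rbm24, a splicing regulator of heart and skeletal muscle, had 14.7, 12.9 and 10.5 CPM in SD and 2.35, 0.809 and 2.85 CPM in Ctrl, 6.35-fold higher with a log2 difference of 2.25 ± 0.26 (standard error; adjusted p = 2.4e-09). Nova1, a neuronal splicing regulator, had 51.3, 44.6 and 39.5 CPM in SD and 9.11, 9.57 and 8.97 CPM in Ctrl, 4.90-fold higher (adjusted p = 7.5e-16). Nova2, its paralog, had 59.7, 68.6 and 71.1 CPM in SD and 22.8, 25.2 and 25.5 CPM in Ctrl, 2.71-fold higher (adjusted p = 3e-14). In these 3 genes every SD library exceeded every Ctrl library. Rbfox3, known as the neuronal marker NeuN, had 11.2, 9.18 and 11.5 CPM in SD and 4.28, 2.7 and 2.71 CPM in Ctrl, 3.30-fold higher (adjusted p = 1.6e-06). The more widely expressed Rbfox2 was 1.63-fold higher (90.8, 86.7 and 102 CPM in SD, 58, 59.2 and 54.4 CPM in Ctrl), and Rbfox1, near the limit of detection, was not tested (1.23, 1.58 and 0.598 CPM in SD, 0.276, 0.944 and 0.142 CPM in Ctrl).

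Markers of the cells in which these regulators are best known were read beside them. Of 13 neuronal and neuroendocrine markers listed, 7 were in the table, 1 of them being Rbfox3 itself. Of the 7, 6 were higher (85.7%, against 27.7% of all genes tested). Their summed level was 333 to 350.5 CPM in SD and 123 to 133 CPM in Ctrl, and most of it was Stmn2 (289.5, 285 and 270.5 CPM in SD, 97.6, 105 and 102 CPM in Ctrl). Uchl1 was 4.81-fold higher and Syp 1.94-fold, whereas Map2 did not pass (5.66 CPM in SD, 8.12 CPM in Ctrl). Tubb3, Snap25, Syt1, Nefl, Nefm and Chga were not analysed here. Muscle markers did not move together: of 8, 5 were higher (62.5%, against 27.7% of all genes tested) and 2 were lower (25%, against 28.7%). The higher ones were Tnni3 (4.15-fold), Actc1 (2.85-fold), Myl7 (2.36-fold), Ttn (2.16-fold) and Tnnt2 (1.83-fold). The lower ones were the myosin heavy chains Myh6 (2.51-fold) and Myh7 (2.13-fold). The summed level of the 8 was 480.3 to 509 CPM in SD and 597 to 625 CPM in Ctrl. The part of these cells in the levels of Nova1, Nova2, Rbfox3 and Rbm24 was not tested.

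Mbnl2, a zinc finger regulator of developmental splicing, had 828, 819.9 and 860.3 CPM in SD and 437, 479.6 and 415 CPM in Ctrl, 1.88-fold higher (adjusted p = 1.6e-19). Mbnl1 was called 1.10-fold higher with overlapping groups (831, 841 and 875 CPM in SD, 734, 840.2 and 749.6 CPM in Ctrl), a call lost under quantile normalization (adjusted p = 0.34) and without Ctrl replicate 1 (adjusted p = 0.081), Ctrl replicate 3 (adjusted p = 0.072) or SD replicate 3 (adjusted p = 0.054). Celf2, a CELF protein that counters MBNL proteins on shared exons, was 1.61-fold higher (299, 271 and 309 CPM in SD, 184, 183 and 179 CPM in Ctrl; adjusted p = 3.1e-13), and Celf1 was 1.26-fold higher. Celf4, best known in neurons, ran the other way from the NOVA genes: 14, 14.5 and 18.2 CPM in SD against 29.5, 27.4 and 30.6 CPM in Ctrl, 1.87-fold lower (adjusted p = 2.8e-06). Elavl1, or HuR, which stabilises AU-rich mRNAs, was 1.39-fold higher (146, 152 and 141 CPM in SD, 97.6, 110.3 and 108 CPM in Ctrl; adjusted p = 1.9e-07).

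The epithelial regulators were lower. Esrp1 and Esrp2 maintain epithelial isoforms. Esrp1 had 39.9, 49.5 and 40.8 CPM in SD and 55.2, 59.7 and 67.8 CPM in Ctrl, 1.40-fold lower (adjusted p = 0.00011). Esrp2 had 55, 51.8 and 46.6 CPM in SD and 86.5, 81.7 and 81.8 CPM in Ctrl, 1.63-fold lower (adjusted p = 9.3e-09), and its locus overlaps Nfatc3. Neither gene's groups overlapped. Rbm47, a cofactor of cytidine editing of RNA, had 15.2, 17.4 and 18.5 CPM in SD and 37.3, 37.8 and 40.3 CPM in Ctrl, 2.26-fold lower (adjusted p = 1.6e-09). Among epithelial markers, Sftpc of type 2 cells was 3.42-fold lower (1179.5 CPM in SD, 4033 CPM in Ctrl), while Foxj1 of ciliated cells was 3.57-fold higher (218 CPM in SD, 61 CPM in Ctrl). The part of these shifts in the ESRP and Rbm47 levels was not tested.

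**Figure D4:**
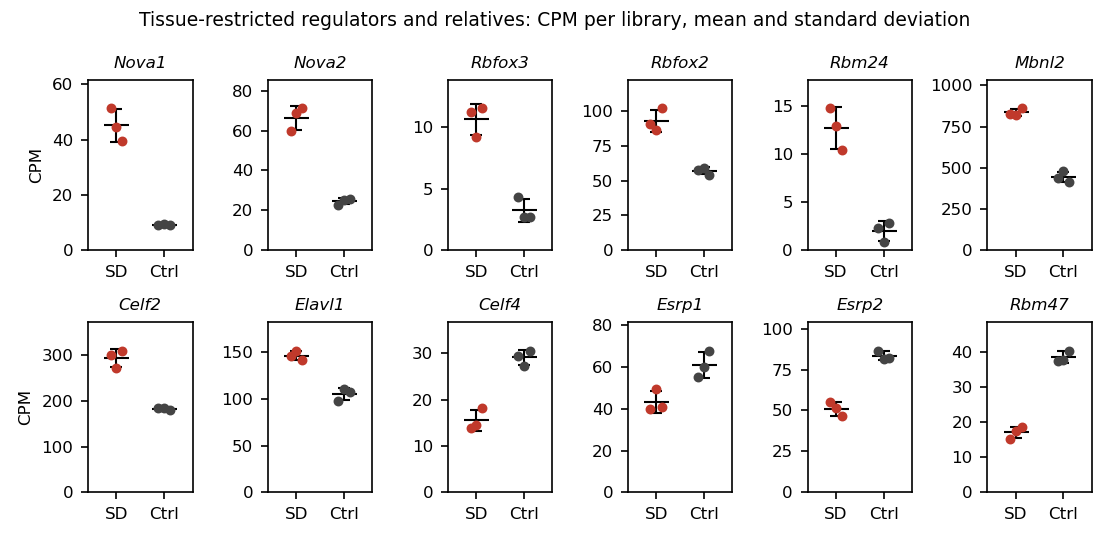
CPM in each library for 12 regulators, both cell-type-restricted ones and more widely expressed ones such as Rbfox2 and Elavl1; points are libraries, SD left of Ctrl, with the mean and standard deviation as bars. Nova1, Nova2, Rbfox3, Rbfox2, Rbm24, Mbnl2, Celf2 and Elavl1 are higher in SD, while Celf4, Esrp1, Esrp2 and Rbm47 are lower (Rbm47 17 CPM in SD, 38.4 CPM in Ctrl).

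The LSm proteins, which form rings on U6 snRNA and on decaying mRNA, and the Cpsf proteins of 3' end processing included genes of both directions. Of 12 LSm genes, 2 were higher (4 without SD replicate 1) and 3 were lower. These shares, 16.7% and 25%, were both below those of all genes tested (27.7% and 28.7%). Lsm6, shared by both rings, was 1.32-fold higher (80.8, 73.6 and 72.2 CPM in SD, 58.7, 52.6 and 60.1 CPM in Ctrl; adjusted p = 0.00017). Lsm1, the subunit particular to the cytoplasmic decay ring, was 1.57-fold lower (15.7, 16.2 and 18.4 CPM in SD, 28.2, 25.1 and 25.8 CPM in Ctrl; adjusted p = 0.0003), and Lsm8, its counterpart in the nuclear ring, did not pass (36.6 CPM in SD, 31.9 CPM in Ctrl). The translational regulators Lsm14a and Lsm14b, paralogs found in cytoplasmic granules, went opposite ways: Lsm14a was 1.17-fold higher (295, 292 and 313 CPM in SD, 263, 248 and 255 CPM in Ctrl; adjusted p = 0.00026), and Lsm14b was 1.26-fold lower (35.5, 31.7 and 31.5 CPM in SD, 39.9, 41.8 and 43.2 CPM in Ctrl; adjusted p = 0.0096). The groups overlapped for neither. Of 6 Cpsf genes, 2 were higher and 3 were lower (33.3% and 50%, against 27.7% and 28.7% of all genes tested). No Cpsf gene was called higher without SD replicate 3. The lower call of Cpsf2, whose groups overlapped, was lost without SD replicate 1 (adjusted p = 0.058) or Ctrl replicate 3 (adjusted p = 0.053). That of Cpsf4 was lost without Ctrl replicate 1 (adjusted p = 0.058). Cpsf3, the endonuclease, was 1.71-fold lower (57.1, 49.8 and 62.3 CPM in SD, 92.6, 94.6 and 103 CPM in Ctrl; adjusted p = 7.6e-10), with the limit that its locus overlaps Itgb1bp1. Cpsf6 and Cpsf7 were 1.12-fold and 1.15-fold higher. Both calls were lost under quantile normalization (adjusted p = 0.091 and 0.057) and without SD replicate 3 (adjusted p = 0.064 and 0.12).

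Among the splicing and RNA-binding genes, direction went with level. Among the 72 genes with a mean over 100 CPM, 54 were higher (75.0%) and 5 were lower (6.9%), with a median of 0.26, and among all 1871 tested genes of that level 43.7% were higher and 33.6% were lower. Among the 62 genes between 20 and 100 CPM, 14 were higher (22.6%) and 19 were lower (30.6%), close to the shares of all genes of that level (29.3% and 34.7%). Of the 33 tested genes under 20 CPM, 4 were higher and 4 were lower. Precision differed across these bands: the median coefficient of variation was 3.30% in SD and 3.96% in Ctrl over 100 CPM, and 27.6% in SD and 18.7% in Ctrl under 20 CPM. The 167 genes are not independent replicates and share the same 6 libraries. Across them, Spearman's rho of the log2 difference was 0.30 with mean CPM, 0.27 with mean CPM per kilobase and 0.02 with exon length. Over all 9945 genes tested, rho with mean CPM was 0.03. The bands were set with the values known, and their counts were not repeated in other settings. Under quantile normalization 15 of the 100 calls were lost and 6 were gained. The lost calls included Srsf1, Srsf3, Snrpb, Mbnl1, Hnrnpa1, Hnrnpa3, Hnrnpab, Hnrnpk and Hnrnpu, all called higher with means over 100 CPM.

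**Figure D5:**
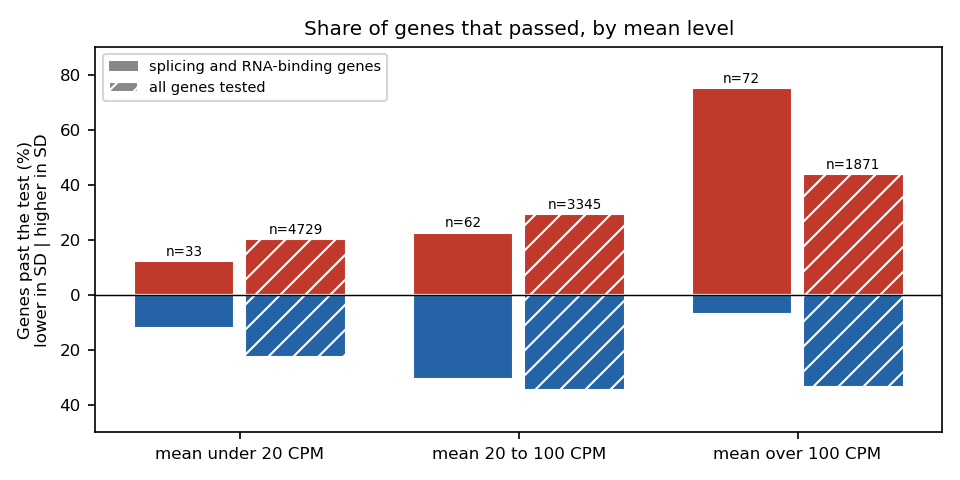
Percentage of genes past limma's test, higher in SD above the zero line and lower in SD below it, in 3 bands of mean CPM; plain bars are the splicing and RNA-binding genes, hatched bars all genes tested, with the number of genes above each bar. Over 100 CPM, 75.0% of the splicing and RNA-binding genes were higher, against 43.7% of all genes. Some of these calls were lost under quantile normalization, in which the bands were not counted.

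Genes of the same pathways outside the chosen families were read from lists. Of 162 tested genes on 5 lists, 68 were higher and 33 were lower, with a median of 0.12 (42.0% higher and 20.4% lower, against 27.7% and 28.7% of all genes tested). On the list of other splicing regulators 24 of 37 were higher (64.9%) and 4 were lower (10.8%), with a median of 0.29. Son, a scaffold of nuclear speckles, was 1.65-fold higher (1218, 1204 and 1231 CPM in SD, 727, 771 and 719 CPM in Ctrl). Ewsr1, an RNA-binding protein of the FET family, was 1.63-fold higher, and the neuronal paralog of the polypyrimidine tract binding proteins, Ptbp2, was 1.79-fold higher (143, 126 and 131 CPM in SD, 69.6, 84.3 and 69.1 CPM in Ctrl). Ptbp1 did not pass (139 CPM in SD, 135 CPM in Ctrl). The SR-related protein Srrm2, another speckle scaffold, was 1.24-fold lower (314, 307 and 302 CPM in SD, 385, 385 and 377 CPM in Ctrl; adjusted p = 7.3e-07).

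Other components of the spliceosome were close to balance, with 17 of 59 higher (28.8%, near the 27.7% of all genes tested), 12 lower (20.3%) and a median of -0.01. Within that list Snrnp70, which binds U1 snRNA, was 1.52-fold higher, and the tri-snRNP protein Sart1 was 1.65-fold higher. Of 23 exon junction and mRNA export genes, 9 were higher (39.1%) and 5 were lower (21.7%). The largest was Nxf1, the general mRNA export receptor, at 289.8, 279 and 280.4 CPM in SD and 157, 165 and 159 CPM in Ctrl, 1.77-fold higher (adjusted p = 9.6e-16). Of 29 other genes of 3' end processing and mRNA tails, 10 were higher (34.5%) and 9 were lower (31.0%). Pabpn1, the nuclear poly(A)-binding protein, was 1.66-fold higher (544, 579.6 and 579.7 CPM in SD, 349, 348 and 330.3 CPM in Ctrl). Cytoplasmic Pabpc1 was 1.07-fold lower (1933 CPM in SD and 2061 CPM in Ctrl, adjusted p = 0.022). The Pabpc1 call was lost without SD replicate 2 (adjusted p = 0.15), in edgeR (0.055) and in DESeq2 (0.066). It was also lost with size factor scaling (0.0509), quantile normalization (0.057) and a replicate block (0.0503).

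Promoter sequences were available for 146 of the 170 genes, which had 197 promoters. A gene was counted if any of its promoters held the motif. Shares of genes are therefore not on the same footing as shares of single promoters. The canonical E-box (CACGTG, a palindrome, so the same on both strands), the site bound by the circadian factors CLOCK and BMAL1 and by MYC, occurred within the 300-base window of 17 of these genes (11.6%), against 12.2% of the 7848 tested genes with a promoter and 7.15% of all 32851 promoters. By outcome it was found in 11 of the 65 genes higher in SD (16.9%), in 0 of the 20 lower genes and in 6 of the 59 that did not pass. Among the 11 were Hnrnpd, Hnrnpf, Hnrnpm, Ddx5, Prpf3 and Prpf39. The calls of the others, Rbm46, Prpf40b, Ddx42, Mbnl1 and Hnrnpa3, were each lost in at least 1 alternative fit. The promoter of Prpf39 is shown because it had the largest fold of these 11 genes among those whose groups did not overlap (RefSeq, GRCm38.p6, plus strand, chr12:65036084-65036383), with the E-box in capitals.
Prpf39: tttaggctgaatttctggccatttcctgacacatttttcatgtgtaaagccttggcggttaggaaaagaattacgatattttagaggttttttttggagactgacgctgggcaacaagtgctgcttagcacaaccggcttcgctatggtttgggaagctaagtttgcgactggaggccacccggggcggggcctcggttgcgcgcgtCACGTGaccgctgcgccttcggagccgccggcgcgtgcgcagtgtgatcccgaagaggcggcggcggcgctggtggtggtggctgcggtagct

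The ETS core CCGGAAG, searched on both strands, occurred in 45 of the 146 genes (30.8%), against 19.7% of tested genes. Counted by single promoter, an unlike unit, it was in 8.86% of all promoters. It was found in 16 of 65 higher genes (24.6%), 10 of 20 lower genes and 19 of 59 that did not pass (32.2%). It was present in the Srsf5 and Srsf7 promoters given above and absent from the Srsf2 window. The CCAAT box occurred in 36 of 65 higher genes (55.4%) and 6 of 20 lower genes (30.0%), against 41.7% of tested genes. The cyclic AMP response element TGACGTCA was in none of the 65 higher genes, 2 of the 20 lower genes and 7 of the 59 that did not pass, against 3.66% of tested genes. These matches describe the letters of the reference sequence, and binding was not measured.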

How the data were processed

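RNA was measured by sequencing of total RNA from 3 SD and 3 Ctrl lung tumours, labelled as biological replicates and treated as 1 genotype, whose details are not reported here; the p-values reflect the spread among those samples. TRIzol RNA (1.5 ug) was made into libraries with a NEBNext Ultra kit, with no strand setting given, per the labels' protocols. HISAT2 2.0.5, featureCounts 1.5.0-p3 and mm10 are named in the submitters' processing notes. The authors deposited CPM (reads of a gene relative to the library total) for 10191 genes, per the file headers. Steps in the CPM values gave whole reads for 61022 of 61146 values (99.8%, within 0.01 read). Totals were 6511192 to 7417095 reads, and a floor of 3 reads equalled 0.404 to 0.461 CPM; floors cover counting error only. The 60 rows listed above Aaas were left out, which held none of the genes described.

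A filter of 1 CPM or more in 3 or more libraries kept 9945 genes, which were tested with limma 3.58.1 (R 4.3.3), with trend, on log2(CPM + 1), SD minus Ctrl, with Benjamini-Hochberg adjustment over all of them and a threshold of 0.05. The added 1 makes differences of low genes too small; folds are ratios of mean CPM. Levels between genes are compared per kilobase of GENCODE M21 exons. Overlap with another annotated gene is stated for some loci only. Others that overlap include Hnrnpul2 (AC129217.1), Snrpa1 (Gm45213), Cpsf7 (Tmem216) and Hnrnpab (Phykpl). The test had no replicate term, and same-numbered SD and Ctrl samples did not deviate together. Alternatives were another pseudocount, filter or scaling, quantile normalization, a replicate block, each library left out, and, on recovered reads, edgeR 4.0.16 and DESeq2 1.42.0. The script was tested on simulated data. The genes and lists were chosen with earlier results of these data known. Named with values were up to 4 called genes of smallest adjusted p per family, the 10 largest rises and falls, paralogs, Cirbp and up to 3 genes per pathway list; others named were chosen after their values were seen.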

Additional observations from a re-analysis of the deposited data

How the results depend on the processing

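The count of genes called stayed within 1.5 times of 100 under these changes of processing: 91 under quantile normalization (62 higher, 29 lower), 96 with DESeq2, 102 with TMM or size factor scaling, 103 with edgeR (75 higher, 28 lower), and 89 to 96 with 1 library left out (65 to 69 higher, 24 to 29 lower). Requiring a change of at least 1.5-fold left 35 (25 higher, 10 lower). A fit with a replicate block called 98 (70 higher, 28 lower). Deviations of same-numbered libraries correlated at -0.00703, -0.01901 and 0.01286, so no shared deviation was seen. With 3 libraries per group, these values cannot show whether the samples were paired. Of the 100 calls, 74 held in each setting that tested them and 26 were lost in at least 1. Of the genes followed singly, 3 that did not pass changed sign. Under quantile normalization the log2 differences were -0.018 for Srsf11, -0.038 for Hnrnpa0 and -0.10 for Hnrnpc, and the cause was not tested. With 1 library left out, Srsf11 ranged from -0.0034 to 0.11, Hnrnpa0 from -0.025 to 0.15 and Hnrnpc from -0.016 to 0.024. Depth limits the low genes: under 20 CPM the replicates varied by a median of 27.6% in SD and 18.7% in Ctrl.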
